A study of Mus musculus with 24 samples.

Results

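The comparison set 12 melanomas of the genotypes TN61L/L and TN61H/H against 12 melanomas of the genotypes TN61R/R and TN61K/K, which together are all 24 tumours of the series, with 6 tumours in each genotype. Tumours were placed by the genotype in their labels, and the genotypes were grouped by the residue at codon 61, with leucine and histidine on one side and the basic residues arginine and lysine on the other. This grouping was chosen with earlier results of these same tumours in view, among them a shift of chromosome 6 and the position of TN61L/L between TN61R/R and TN61H/H. Counts of called genes, the chromosome 6 values and the agreement between pairs of genotypes therefore describe these 24 tumours and are not independent evidence for the grouping. The question was which genes separate the sides and are shared by both genotypes of a side.

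All 24 tumours were taken from C57BL/6 TN mice, whose Tyr::CreERT2 transgene encodes a tamoxifen-dependent Cre recombinase under the tyrosinase promoter and acts in melanocytes. Cre removes a stop cassette in front of a mutant allele at the endogenous Nras locus. The tumour donors were homozygous for arginine (TN61R/R), lysine (TN61K/K), leucine (TN61L/L) or histidine (TN61H/H) at codon 61, and the alleles other than arginine were made by editing zygotes that carried the arginine allele. Cre was activated by 20 mM 4-hydroxytamoxifen on the skin at postnatal days 1 and 2, and the study's methods add a later exposure to ultraviolet light, which the labels do not record for these mice. Tumours were taken when the mouse reached its endpoint, so they do not represent an early stage. In the study's cohorts TN61L/L mice reached the endpoint later than TN61R/R and TN61K/K mice, and TN61H/H mice latest. The labels give no age for these tumours, so age at collection cannot be told apart from genotype. Normal skin and tumours without mutant Nras are not among the samples used here.

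RAS proteins are switches that are active when bound to GTP. The glutamine at codon 61 positions the water that hydrolyses GTP, and its replacement keeps NRAS active, so that it recruits RAF kinases and feeds the MEK and ERK cascade. Arginine and lysine carry a positive charge, histidine is only weakly basic, and leucine carries none. In the mouse reference transcript the codon lies in exon 3 of Nras (chromosome 3, 103060270 to 103060272, plus strand, GRCm38), and the sequence is shown because it is the engineered difference between the groups, with the glutamine codon of the reference in capitals.
Nras codon 61 and its flanks: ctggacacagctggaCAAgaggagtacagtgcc

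Counted reads per library ran from 31.9 M to 43.8 M, with a mean of 36.1 ± 2.67 M (SD, n = 12) for TN61R/R and TN61K/K and 36.5 ± 3.36 M for TN61L/L and TN61H/H. The female transcript Xist was high in 7 of 12 and 6 of 12 tumours of these sides. The names of 6 libraries in the count table lack a separator that the other 18 have, which may mark a library batch. These are 4 libraries on the TN61R/R and TN61K/K side and 2 on the other, and of 49 called genes followed through the alternatives 30 kept their call within the 18 alone. Sox10, which specifies the melanocyte and glial lineages, was present in every tumour (109.7 to 1049 CPM, counts per 1 M reads of the scaled library), whereas the melanosome gene Mlana stood at a median of 0.750 and 0.689 CPM on the sides and Tyr at 1.10 and 1.21 CPM, so transcripts of pigment production were low. Titles of the 6 TN61R/R tumours carry the code 61K, 61L or 61P, with 2 tumours each, while every other genotype carries its own code. The code therefore cannot be told apart from TN61H/H, but TN61L/L and TN61K/K each have 2 TN61R/R tumours under their own code. The labels do not say that each tumour came from a separate mouse, and the titles of TN61H/H replicates 4 and 5 share a number, so these 6 tumours may come from 5 mice. The p-values speak only of how much these tumours scatter.

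TN61L/L and TN61H/H melanomas had higher transcript levels of 4 of 18 potassium channel subunits, of 4 of 18 neural crest and Schwann cell genes and of 195 of 878 genes on chromosome 6. They had lower levels of 7 of 17 macrophage, 8 of 14 dendritic cell and MHC class II, 5 of 22 T and NK cell and 3 of 12 neutrophil genes, and these counts were smaller in several of the alternatives given below. Of these lower genes 1, 1, 4 and 2, in the same order, met the rule for shared genes given below. Of 17214 genes tested, 913 (5.3%) were called at an adjusted p under 0.05 in the edgeR quasi-likelihood test, 459 higher (2.67%) and 454 lower (2.64%) in TN61L/L and TN61H/H. In 904 of the 913 all 4 differences between a genotype of one side and a genotype of the other had the same sign. The 913 were called on the mean of these same 4 differences, so their agreement in sign is largely set by the choice. A gene was counted as shared when it was called and each of these 4 differences reached at least 0.5 on the log2 scale, which 316 genes did (1.84%), 142 higher and 174 lower. The count of 913 fell to 230 within the 18 libraries of one name style (178 higher and 52 lower, 81 shared), and it moved between 466 without TN61H/H replicate 1 and 1537 without TN61H/H replicate 4. Without TN61H/H replicate 5 it was 520, and with replicates 4 and 5 summed into 1 sample, which was tried after the values were seen, it was 1051.

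The genotypes of a side were not equal in size. The 142 shared higher genes had a median log2 difference from the mean of TN61R/R and TN61K/K of 1.04 in TN61L/L and 1.52 in TN61H/H, and TN61H/H had the larger mean in 117 of them. The 174 shared lower genes had medians of -0.81 and -1.51, and TN61H/H had the smaller mean in 164. Between TN61K/K and TN61R/R the same medians were 0.00 and 0.18. TN61H/H by itself against TN61R/R and TN61K/K gave 1586 called genes, whereas TN61L/L by itself gave 0 in edgeR, with 1176 genes at an unadjusted p under 0.05 and a smallest adjusted p of 0.0825. TN61H/H and TN61L/L differed in 0 genes (1931 at an unadjusted p under 0.05), as did TN61K/K and TN61R/R (887), which does not show that they were alike. Against the 2 TN61R/R tumours of the same title code, a comparison added after the values were seen, TN61L/L had a median log2 difference of 1.07 over the 142 shared higher genes, all of them above 0, and of -0.77 over the 174 shared lower genes, 169 of them below 0. TN61K/K against its own 2 TN61R/R tumours had medians of -0.07 and 0.28. In edgeR 0 genes were called in either comparison (487 and 493 at an unadjusted p under 0.05). The TN61R/R tumours also entered the choice of the shared genes, so these medians are a description.

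The comparisons TN61H/H against TN61R/R and TN61L/L against TN61K/K use none of the same tumours. The first called 348 genes (2.02%), 217 higher and 131 lower, in the fit of all 24 tumours, but only 30 when its own 12 tumours were fitted alone. Of the 217, 205 (94.5%) were also higher in TN61L/L than in TN61K/K, where 48.5% of all tested genes were, and their median log2 fold change there was 0.39. Of the 131, 127 (96.9%) were also lower, where 51.5% of all tested genes were, with a median of -0.61. In TN61L/L against TN61K/K 172 of the 348 (49.4%) had an unadjusted p under 0.05 in the same direction, where 8.09% of all tested genes passed that p in either direction, and 0 passed the adjusted threshold in edgeR (1393 of all genes at an unadjusted p under 0.05). Without chromosome 6, 114 of 126 higher genes (90.5%) and 122 of 126 lower genes (96.8%) kept their direction. Of all tested genes off this chromosome 47.3% were higher and 52.7% lower there. In the other pair without common tumours TN61H/H against TN61K/K called 1612 genes (9.36%), or 447 from its own 12 tumours. Of the 1612, 536 of 739 higher genes (72.5%, where 48.6% of all tested genes were higher) and 671 of 873 lower genes (76.9%, where 51.4% were lower) had the same direction in TN61L/L against TN61R/R. There 208 of the 1612 (12.9%) had an unadjusted p under 0.05 in the same direction, where 5.55% of all tested genes (956) passed that p in either direction, and 0 were called in edgeR. Without chromosome 6, 355 of 554 higher genes (64.1%, background 47%) and 639 of 825 lower genes (77.5%, background 53%) kept their direction in this pair. An unadjusted p under 0.05 in the same direction was then reached by 8.34%, where 4.7% of all tested genes passed that p in either direction. The lists of the pairs differ in length, and the difference between the pairs in these shares was not tested. The grouping was chosen with the position of TN61L/L between TN61R/R and TN61H/H known, so these shares are a description and not a replication. Genes were counted one by one, whether or not they vary together. The change of the TN61H/H against TN61R/R difference relative to the TN61L/L against TN61K/K difference was called for 0 genes in edgeR (594 at an unadjusted p under 0.05). The change of the TN61H/H against TN61K/K difference relative to the TN61L/L against TN61R/R difference was also called for 0 genes, but 2566 had an unadjusted p under 0.05.

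**Figure D1:**
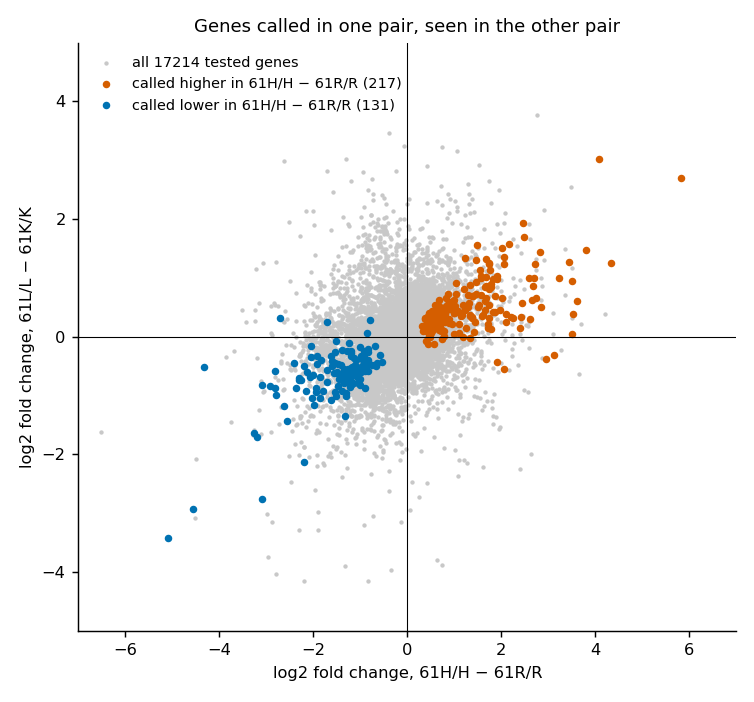
Each point is a tested gene, with its log2 fold change in TN61H/H against TN61R/R on the horizontal axis and in TN61L/L against TN61K/K, which shares none of the tumours, on the vertical axis. Orange and blue points were called higher (217) or lower (131) in the first comparison, and 205 and 127 of them lie on the same side of 0 in the second; 2 genes fall outside the axes.

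Mrgprf, which encodes an orphan receptor of the Mas-related family (chromosome 7, 145300909 to 145309557, mm10), was among the genes with the smallest adjusted p. It stood at 16.8, 34.6 and 62.5 CPM (lowest, median, highest) in TN61R/R and TN61K/K and at 52.5, 88.9 and 138 CPM in TN61L/L and TN61H/H. Of the 12 TN61L/L and TN61H/H tumours 11 lay above the highest TN61R/R or TN61K/K tumour. The log2 fold change was 1.33 ± 0.17 (SE, adjusted p = 0.00107), and Mrgprf kept its call in all 38 alternatives of this contrast, the leukocyte covariates described further on included.

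Kndc1, a brain gene with an exchange-factor domain for RAS, was low in TN61R/R and TN61K/K at 0.516, 1.09 and 3.33 CPM and reached 2.07, 10.8 and 60.0 CPM in TN61L/L and TN61H/H. Again 11 of 12 tumours lay above the range of the other side. Its log2 fold change was 3.55 ± 0.47 (SE, adjusted p = 0.00107). By genotype, its median was 1.15 CPM for arginine, 0.888 CPM for lysine, 10.7 CPM for leucine and 14.9 CPM for histidine.

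Deptor, which binds and inhibits the mTOR kinase, stood at 78.2, 104 and 212 CPM against 159.8, 323 and 676 CPM, and 10 of 12 TN61L/L and TN61H/H tumours exceeded the other side. Its log2 fold change was 1.47 ± 0.21 (SE, adjusted p = 0.00132). Deptor was the sole called member of 20 PI3K and mTOR components (5%, where 5.3% of all tested genes were called and 2.67% called higher). Ttyh1, a membrane protein of the tweety family found in neural cells, stood at 40.9, 68.2 and 104 CPM against 103, 134 and 217 CPM, so the ranges met at their edge (1.01 ± 0.14, adjusted p = 0.00114). Flnc, a filamin that cross-links actin, stood at 177, 386 and 543 CPM against 438, 851 and 1320 CPM, with 11 of 12 tumours above the other side (1.29 ± 0.19, adjusted p = 0.00132). AI854703, a gene on chromosome 6 without a role given here, stood at 1.07, 1.505 and 2.39 CPM against 1.97, 4.30 and 6.67 CPM, with 9 of 12 above.

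**Figure D2:**
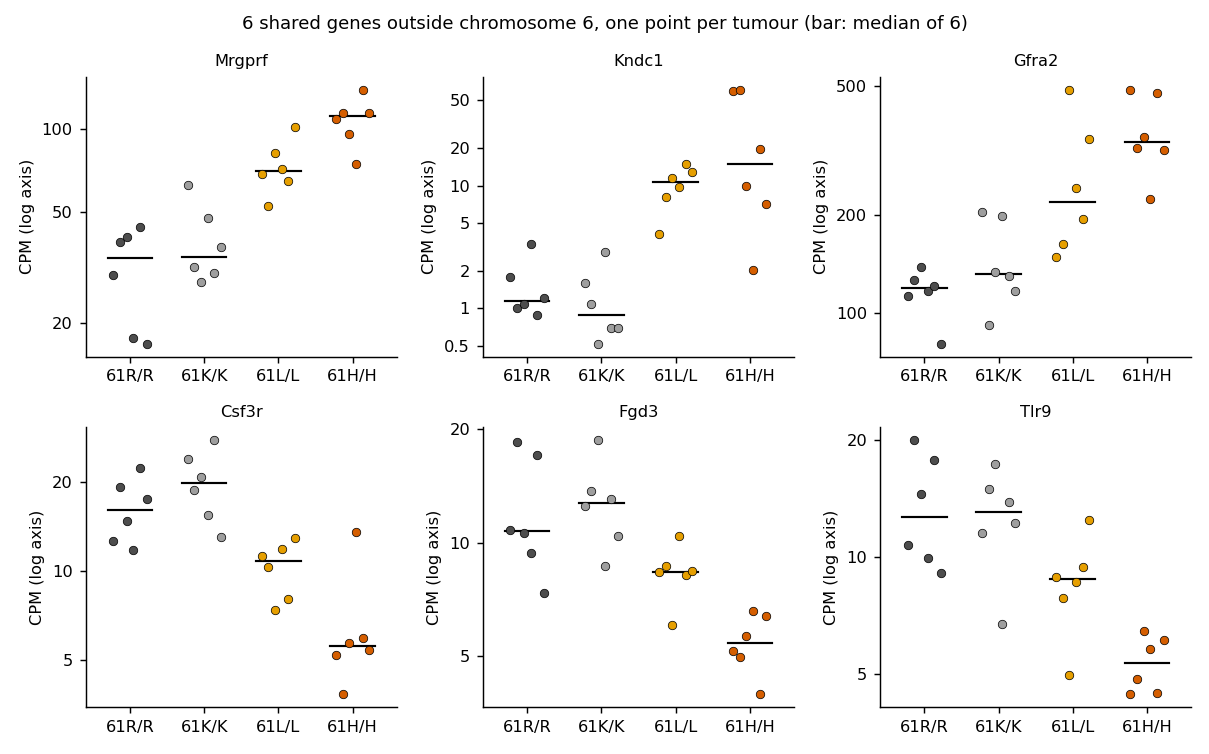
CPM on a log axis for 6 shared genes outside chromosome 6, with one point per tumour, 6 tumours per genotype and the median as a bar. Mrgprf, Kndc1 and Gfra2 lie higher and Csf3r, Fgd3 and Tlr9 lower in TN61L/L and TN61H/H, and the TN61H/H median is the farther one in all 6; for Csf3r the highest TN61H/H tumour (13.5 CPM) lies within the range of TN61R/R.

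Voltage-gated potassium channels repolarise the membrane of excitable cells and are also found in glia. Of 18 tested members of the list, 4 were called higher (22.2%, where 2.67% of all tested genes were) and 0 lower, all 4 of them shared. The list median was 0.22 where that of all tested genes was -0.00. Of the 18, 6 lay below 0, and the list median was 0.02 in TN61H/H taken alone. Within the 18 libraries of one name style 3 channels were called, and without chromosome 6 a single one. The summed level of the list was 364.9, 730.5 and 1659 CPM in TN61R/R and TN61K/K and 1553, 2541 and 5624 CPM in TN61L/L and TN61H/H. This sum mostly repeats called genes: in TN61H/H replicate 1 it was 5218 CPM, with Kcna1 at 3148, Kcna6 at 1321 and Kcna2 at 664 CPM. Kcna1 and Kcna6, neighbouring genes for pore-forming subunits of the Shaker family, lie on chromosome 6 (126636463 to 126645801 and 126708329 to 126740674, mm10). Kcna1 stood at 112, 343 and 938 CPM against 949, 1672 and 3148 CPM, which is 2.13 ± 0.30 on the log2 scale (SE, adjusted p = 0.00114). Kcna6 stood at 99.7, 208 and 369 CPM against 383, 572 and 1654 CPM, which is 1.71 ± 0.24 on the log2 scale (adjusted p = 0.00114). All 12 TN61L/L and TN61H/H tumours were above all 12 others for both genes.

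The other called channels lie on other chromosomes and did overlap. Kcna2, a further Shaker subunit on chromosome 3, stood at 39.4, 121 and 362 CPM against 95.5, 372 and 1623 CPM (log2 fold change 1.51 ± 0.42, adjusted p = 0.0380), and this call was lost in 21 of 38 alternatives, among them the 18 libraries of one name style. Kcnh2, the ether-a-go-go-related channel of cardiac repolarisation, stood at 0.579, 0.977 and 2.11 CPM against 1.11, 2.67 and 9.17 CPM (1.76 ± 0.28, adjusted p = 0.00233). Kcnd3, a channel of the transient outward current, had a log2 fold change of 1.49 ± 0.45 and did not pass (adjusted p = 0.0523).

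Only 4 of the 17214 genes (0.0232%) had no overlap between the 12 and 12 tumours, and all 4 lie on chromosome 6 and were called. Besides Kcna1 and Kcna6 they included Luc7l2, which was not a shared gene because TN61L/L differed from each genotype of the other side by less than 0.5. Luc7l2, a splicing factor of the U1 snRNP (38551444 to 38609470), which was named after its values were seen, stood at 172, 197 and 220.2 CPM against 231, 262 and 426 CPM (0.51 ± 0.09, adjusted p = 0.00267). The gaps between the sides were narrow for these 3 genes.

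**Figure D3:**
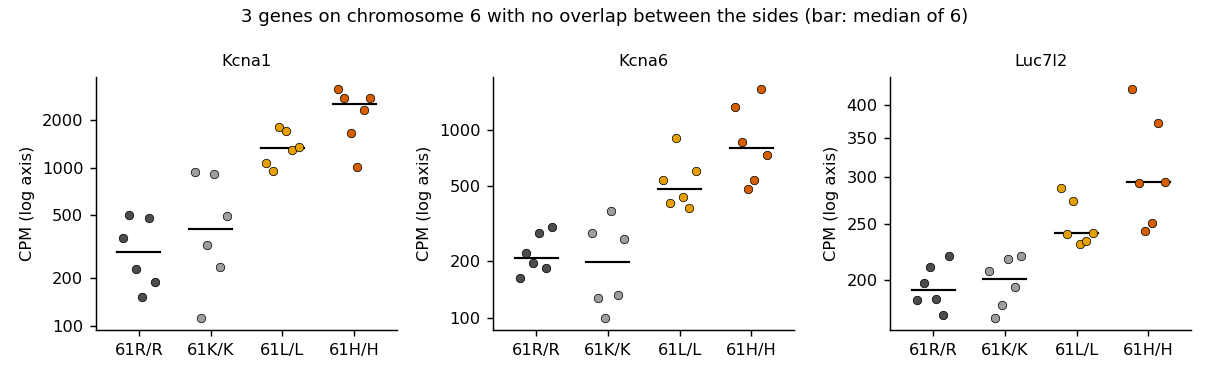
CPM on a log axis for 3 of the genes whose 12 and 12 tumours did not overlap, with one point per tumour and the median of 6 as a bar. The lowest TN61L/L or TN61H/H tumour lies just above the highest TN61R/R or TN61K/K tumour in each panel, for Kcna1 at 949 against 938 CPM and for Luc7l2 at 231 against 220.2 CPM.

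Chromosome 6 held a large part of the higher calls. Its 878 tested genes are 5.1% of all tested genes, but 195 of the 459 higher calls (42.5%) lay there, against 22 of 454 lower calls (12 in limma-voom, 2 within the 18 libraries of one name style). Without single libraries these counts ran from 125 without TN61H/H replicate 1 to 207 higher calls without TN61H/H replicate 4, and from 9 without TN61R/R replicate 5, TN61K/K replicate 3 or TN61H/H replicate 1 to 37 lower calls without TN61H/H replicate 4. On chromosome 6, 22.2% of genes were called higher, against 0.618% to 3.4% on each other chromosome. The difference was broad and small: 622 of the 878 genes (70.8%) had a log2 fold change above 0 where 48.6% did elsewhere, and the chromosome's median was 0.25. It was 0.23 in TN61L/L and 0.29 in TN61H/H against the mean of TN61R/R and TN61K/K, and 0.32 within the 18 libraries of one name style.

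In single tumours, chromosome 6 genes deviated from their 24-library means by a median of between -0.22 and -0.04 on the log2 scale in TN61R/R and TN61K/K and between -0.05 and 0.30 in TN61L/L and TN61H/H. In all, 11 of the 12 TN61L/L and TN61H/H tumours lay above that range, and TN61H/H replicate 3, the lowest at -0.05, lay just inside it. Of the shared genes, 35 of 142 higher and 15 of 174 lower ones are on chromosome 6. With its genes left out of scaling and test, 526 genes were called, 188 higher and 338 lower, and 225 were shared. Transcript counts alone do not give the copy number of the chromosome, which was not tested.

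**Figure D4:**
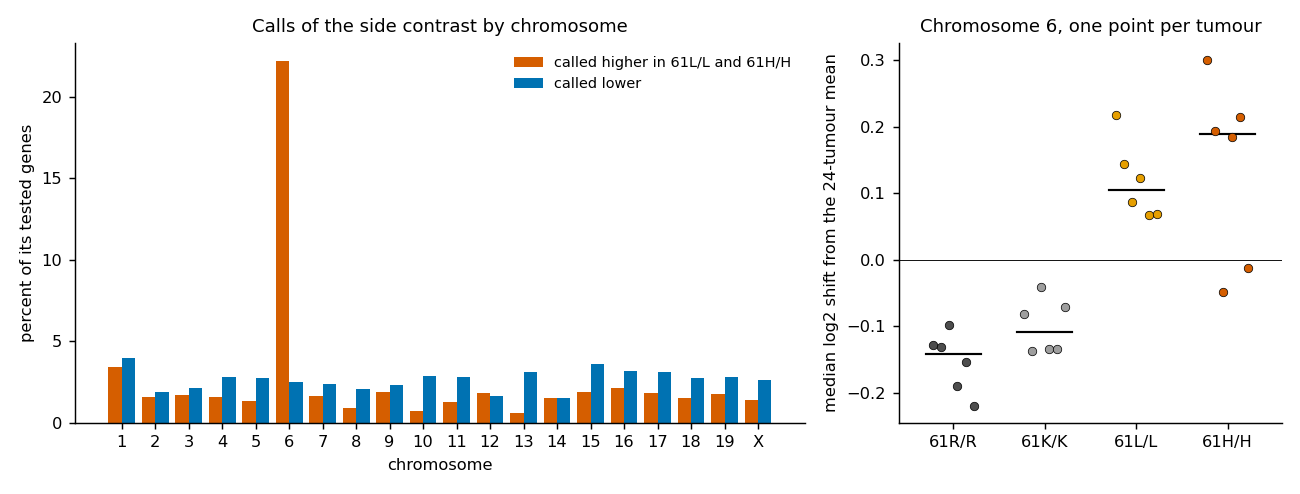
Left, the percentage of each chromosome's tested genes called higher (orange) or lower (blue) in TN61L/L and TN61H/H, which is 22.2% for higher calls on chromosome 6 and at most 3.4% on the others. Right, the median log2 shift of chromosome 6 genes in each tumour from the mean of all 24, with the median of each genotype as a bar; TN61H/H replicates 3 and 6 lie below 0 while the other 10 TN61L/L and TN61H/H tumours lie above it.

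Nras itself, the gene that carries the engineered alleles, was not called. It stood at 75.5, 126 and 225 CPM in TN61R/R and TN61K/K and at 80.8, 181 and 213 CPM in TN61L/L and TN61H/H, with overlapping ranges and a log2 difference of 0.22 ± 0.18 (SE, adjusted p = 0.585). Against the mean of TN61R/R and TN61K/K, the Nras difference was -0.03 ± 0.22 in TN61L/L alone and 0.46 ± 0.22 in TN61H/H alone. Neither passed in edgeR (adjusted p = 0.995 and 0.1955). Of 23 tested RAS and RAF components 4 were called higher (17.4%, where 2.67% of all tested genes were) and 0 lower, with a list median of 0.03, and the called genes included Kndc1, Braf and Sos2. The count was 1 without chromosome 6, and 2 with upper-quartile scaling, with no filter or a stricter one, within the 18 libraries of one name style, and without any 1 of TN61R/R or TN61L/L replicates 3 and 4, TN61R/R replicate 5, TN61K/K replicates 3, 5 and 6, TN61L/L replicate 2 and TN61H/H replicates 1, 2 and 5. Braf, the RAF kinase with the strongest basal activity, on chromosome 6 (39603237 to 39725463), stood at 69.1, 101 and 170.3 CPM against 97.8, 141 and 214 CPM. Its difference of 0.44 ± 0.13 (adjusted p = 0.0483) lost its call in 27 of 37 alternatives. Sos2, an exchange factor that loads RAS with GTP, stood at 54.0, 62.6 and 78.4 CPM against 69.2, 75.0 and 95.6 CPM (0.24 ± 0.07, adjusted p = 0.0372), and lost its call in 23 of 38.

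Of 19 ERK target and feedback genes 0 were called in edgeR and in DESeq2 (2 at an unadjusted p under 0.05 in edgeR), the list median was -0.25 and 13 were below 0. In edgeR 1 was called higher without TN61R/R replicate 6, 1 lower without TN61L/L replicate 1, and 1 in each direction without TN61H/H replicate 4. Dusp6, the phosphatase that removes the activating phosphates of ERK, stood at 204, 238 and 418 CPM against 112, 214 and 348 CPM (log2 difference -0.33 ± 0.15, adjusted p = 0.228). Spry2, another feedback inhibitor, differed by 0.11 ± 0.13 (adjusted p = 0.719). Of 28 proliferation genes 0 were called in edgeR and in DESeq2 (1 at an unadjusted p under 0.05), with a median of 0.13, and Mki67 stood at 98.1, 261 and 814 CPM against 210.3, 393 and 623 CPM (0.21 ± 0.25, adjusted p = 0.729). Of 15 tested pigment cell genes 0 were called by either tool (1 at an unadjusted p under 0.05, median -0.25), and Mitf, the master regulator of melanocytes, differed by 0.19 ± 0.17 (adjusted p = 0.618). In TN61L/L alone and TN61H/H alone the list medians were -0.09 and 0.32 for proliferation and 0.12 and -0.70 for pigment cell genes. For ERK target and feedback genes they were -0.35 and -0.14. In edgeR 5.3% of all tested genes were called, so few calls would be expected in lists of this length.

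Of 18 neural crest and Schwann cell genes 4 were called higher (22.2%, where 2.67% of all tested genes were) and 0 lower, with a list median of 0.44. Of the 4, 3 were shared, and the list median was 0.25 in TN61L/L alone and 0.64 in TN61H/H alone. Gfra2, the co-receptor for neurturin, stood at 80.1, 124 and 205 CPM against 149, 320.4 and 488 CPM, with 9 of 12 tumours above the other side (1.25 ± 0.19, adjusted p = 0.00181). Gfra3, the co-receptor for artemin, was more uneven at 0.637, 2.83 and 43.5 CPM against 3.42, 43.0 and 91.1 CPM (2.79 ± 0.63, adjusted p = 0.0135). Ngfr, the low-affinity neurotrophin receptor that marks neural crest-like melanoma cells, stood at 129.9, 299 and 508 CPM against 261, 519 and 669 CPM (0.72 ± 0.18, adjusted p = 0.0219), and its differences from TN61R/R were the smaller ones, at 0.16 in TN61L/L and 0.57 in TN61H/H. Ngfr lost its call in the model with only the sides.

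Sox2, a stem cell factor also found in Schwann cell precursors, stood at 0.516, 7.63 and 26.5 CPM against 13.5, 20.03 and 69.4 CPM (1.57 ± 0.41, adjusted p = 0.0300). It lost its call in 10 of 38 alternatives, and within the 18 libraries of one name style both Sox2 and Gfra3 lost it. Members of the same list that did not pass included Sox10 (0.50 ± 0.22, adjusted p = 0.205) and Erbb3, the neuregulin receptor (0.61 ± 0.23, adjusted p = 0.139). Within the 18 libraries of one name style the list had 2 called members and a median of 0.48. Of 17 integrin and adhesion genes, Itgb3, a beta chain linked to invasive melanoma, was higher (25.9 CPM at the median against 43.6 CPM, 0.76 ± 0.12, adjusted p = 0.00234) and Itgb5 was lower (135 against 95.3 CPM, -0.49 ± 0.09, adjusted p = 0.00586), a call that Itgb5 lost within the 18 libraries. These were the 2 called genes of the 17, 0 of them shared, where 5.3% of all tested genes were called.

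Many of the lower genes named here are genes of leukocytes. Ptprc, which encodes CD45 and is carried by nearly all leukocytes, stood at 52.4, 124 and 232 CPM in TN61R/R and TN61K/K and at 19.9, 50.7 and 98.8 CPM in TN61L/L and TN61H/H, with overlapping ranges (log2 fold change -1.09 ± 0.24, SE, adjusted p = 0.0117), and it did not pass within the 18 libraries of one name style. In bulk tumour RNA, fewer leukocytes and less of their RNA per cell cannot be told apart. In its own RNA comparison the study reported more transcripts of immune pathways in TN61R/R than in TN61H/H melanomas. By immunohistochemistry for CD45, it reported no difference in immune infiltration between melanomas of these genotypes, and no consistent decrease among TN61H/H tumours. Whether the same tumours were stained is not stated, and staining of protein is another measure than RNA. Csf3r, which encodes the G-CSF receptor of granulocytes (chromosome 4, 126024659 to 126044975), stood at 11.8, 18.1 and 27.6 CPM against 3.83, 7.70 and 13.5 CPM, and 9 of 12 tumours lay below the other side (-1.13 ± 0.18, adjusted p = 0.00233). Pik3ap1, an adaptor that links immune receptors to PI3K, stood at 18.4, 34.2 and 50.5 CPM against 10.1, 16.8 and 23.97 CPM (-1.04 ± 0.17, adjusted p = 0.00229). Tlr9, the endosomal receptor for CpG DNA, stood at 6.74, 13.0 and 19.9 CPM against 4.45, 6.29 and 12.4 CPM (-0.95 ± 0.17, adjusted p = 0.00320).

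A further 3 lower genes are expressed in blood cells. Dok3, an adaptor that dampens immune receptor signalling, stood at 5.86, 8.90 and 18.9 CPM against 3.73, 5.52 and 7.39 CPM, and 11 of 12 TN61R/R and TN61K/K tumours exceeded the other side (-0.89 ± 0.15, adjusted p = 0.00275). Fgd3, an exchange factor for CDC42, stood at 7.35, 11.7 and 18.7 CPM against 3.96, 6.48 and 10.4 CPM (-0.90 ± 0.15, adjusted p = 0.00279). Ccdc88b, a regulator of T cell maturation, stood at 10.2, 17.7 and 27.2 CPM against 5.07, 10.4 and 14.9 CPM (-0.85 ± 0.15, adjusted p = 0.00408). For all 3 genes the sides overlapped in part.

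All 4 leukocyte lists had medians below 0, but several defining markers did not pass. Of all tested genes 2.64% were called lower. Of 22 T and NK cell genes 5 were called lower, 4 of them shared, and all 22 lay below 0. The list median was -0.93, with -0.43 in TN61L/L alone and -1.38 in TN61H/H alone, each against the mean of TN61R/R and TN61K/K. The called genes named here were the helper cell co-receptor Cd4 (8.20 against 3.37 CPM at the medians, -1.23 ± 0.24, adjusted p = 0.00590), the costimulatory receptor Cd28 (-0.98 ± 0.21, adjusted p = 0.00962), the cytotoxic granule gene Nkg7 (-1.37 ± 0.29, adjusted p = 0.00989) and the transcription factor Eomes (-1.50 ± 0.36, adjusted p = 0.0187). Cd3e and Cd8a, with medians of at most 2.00 CPM, differed by -0.62 ± 0.55 and -0.41 ± 0.35 and did not pass (adjusted p = 0.618 and 0.589). The summed level of the list was 34.7 to 97.2 CPM in TN61R/R and TN61K/K and 9.42 to 54.5 CPM in TN61L/L and TN61H/H. Within the 18 libraries of one name style 2 of the 22 were called, and Nkg7 and Eomes were not, while DESeq2 called 10.

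The median of 17 macrophage and monocyte genes was -0.82, with -0.65 in TN61L/L alone and -0.99 in TN61H/H alone. Of the 17, 7 were called lower, 1 of them shared, and 0 higher. They included the chemokine receptor Ccr2 (77.8 against 31.5 CPM at the medians, -1.32 ± 0.30, adjusted p = 0.0137), the endotoxin co-receptor Cd14 (15.6 against 8.01 CPM, -0.99 ± 0.19, adjusted p = 0.00733), the IgG receptor Fcgr1 (-1.01 ± 0.27, adjusted p = 0.0296) and the integrin Itgam (-0.99 ± 0.26, adjusted p = 0.0281). Cd14 differed between TN61L/L and TN61R/R by only -0.06. Csf1r, the growth factor receptor of macrophages, fell just short (-0.60 ± 0.18, adjusted p = 0.0514). The list summed to 1039 to 7091 CPM against 750.1 to 1943 CPM, and within the 18 libraries of one name style it had 1 called gene. The 7 calls fell to 2 without TN61R/R replicate 5, TN61K/K replicate 3 or TN61H/H replicate 1, 2 or 5, to 3 without TN61R/R replicate 3 or TN61L/L replicate 3, and to 4 in limma-voom, and they rose to 11 in DESeq2 and without TN61K/K replicate 4 or TN61H/H replicate 4. Fcgr1 and Itgam each lost their call in 10 of 38 alternatives and turned direction in 1 more.

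Of 14 dendritic cell and MHC class II genes 8 were called lower and 0 higher (median -0.88), and the list summed to 535 to 2008 CPM against 177 to 1310 CPM. Of the 8 calls 1 was shared, and the list median was -0.50 in TN61L/L alone and -1.34 in TN61H/H alone. Cd74, the invariant chain of MHC class II, stood at 213, 431 and 775 CPM against 70.6, 192 and 484 CPM (-1.05 ± 0.23, adjusted p = 0.0109). Ciita, the activator of MHC class II genes (-0.89 ± 0.20, adjusted p = 0.0127), H2-Eb1, an MHC class II beta chain (-1.08 ± 0.26, adjusted p = 0.0207), and Itgax, the integrin CD11c (-1.09 ± 0.23, adjusted p = 0.0100), were called with it. The 8 calls fell to 4 without TN61R/R replicate 5, TN61K/K replicate 3 or TN61H/H replicate 1, to 5 without TN61L/L replicate 3, to 3 within the 18 libraries of one name style, where Cd74 and H2-Eb1 were not called, and to 2 in the model with only the sides. All 11 MHC class I genes were below 0 (median -0.50), but 0 were called in edgeR and in DESeq2 (6 at an unadjusted p under 0.05), and 1 was called lower without TN61H/H replicate 6.

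Of 12 tested neutrophil genes 3 were called lower (median -1.20), namely Csf3r, the cytokine gene Il1b (9.53 against 2.86 CPM at the medians, -1.97 ± 0.52, adjusted p = 0.0294) and the myeloperoxidase gene Mpo. Of the 3, 2 were shared, and the list median was -0.90 in TN61L/L alone and -1.48 in TN61H/H alone. Il1b differed between TN61L/L and TN61R/R by 0.03 and lost its call in 12 of 38 alternatives. The list had 2 calls within the 18 libraries of one name style, where Mpo did not pass, and 5 without TN61H/H replicate 4. Mpo was at the limit of detection, at 0.0509, 0.277 and 2.05 CPM against 0, 0 and 0.204 CPM, and 8 of 12 TN61L/L and TN61H/H tumours lay below the lowest of the other side (adjusted p = 0.00929). S100a8 and S100a9, which neutrophils carry in large amounts, differed by -0.81 ± 0.83 and -1.09 ± 0.83 and did not pass (adjusted p = 0.675 and 0.539).

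The median of 24 interferon targets was -0.33, with -0.17 in TN61L/L alone and -0.47 in TN61H/H alone. Of the 24, 4 were called lower (of all tested genes 2.64% were), 0 of them shared, and 0 higher. They were the nucleic acid sensor Zbp1 (-1.15 ± 0.26, adjusted p = 0.0136), Oas2 (-0.996 ± 0.27, adjusted p = 0.0360), Mx1 (-0.95 ± 0.25, adjusted p = 0.0310) and Oasl2 (-0.62 ± 0.17, adjusted p = 0.0409), the last 3 antiviral effectors. Within the 18 libraries of one name style 0 of the 24 were called in edgeR and the list median was -0.23. The 4 calls fell to 1 in the model with only the sides and without any 1 of TN61R/R replicates 2, 3 and 5, TN61K/K replicates 2 and 3, TN61L/L replicate 3 and TN61H/H replicates 1, 2 and 5, and to 2 in limma-voom and without TN61L/L replicate 1 or 5. They rose to 7 in DESeq2, without TN61H/H replicate 4 and without the sixth TN61R/R replicate. Oasl2 lost its call in 21, Oas2 in 17 and Mx1 in 13 of 38 alternatives.

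The mean log2 CPM over the 4 leukocyte lists was 2.91 ± 0.47 (SD, n = 6) for arginine, 3.28 ± 0.40 for lysine, 2.50 ± 0.47 for leucine and 1.79 ± 0.62 for histidine. It ranged from 2.14 to 3.74 in TN61R/R and TN61K/K and from 0.84 to 3.33 in TN61L/L and TN61H/H. With this mean as a covariate, which was added after the values were seen, 4 genes were called, all higher: Mrgprf, AI854703, Cldn11 and Prss23, the last of which had not been called without it. Sizes changed unevenly, since the median of the 142 shared higher genes went from 1.29 to 1.01 with all 142 still above 0, whereas that of the 174 shared lower genes went from -1.19 to -0.52 with 172 below 0. The chromosome 6 median went from 0.25 to 0.22. The covariate differs between the sides, so a fit that holds it also takes up part of the genotype difference, and the part of leukocyte content in the calls was not tested.

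**Figure D5:**
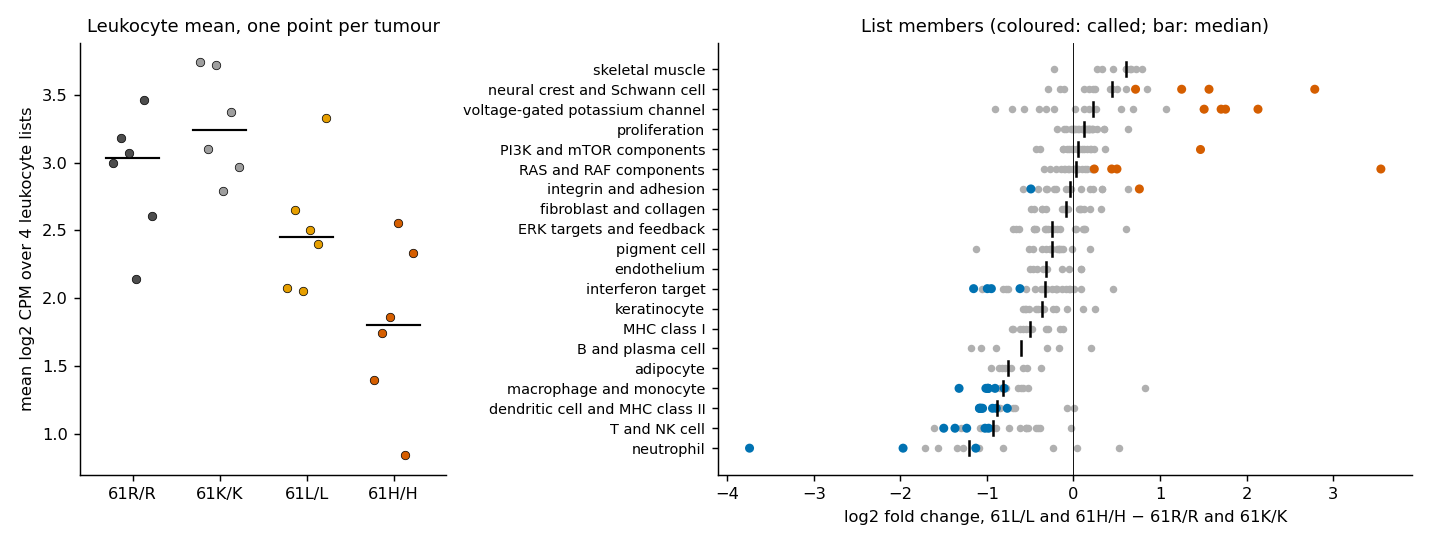
Left, the mean log2 CPM over the T and NK cell, macrophage, neutrophil and dendritic cell lists in each tumour, with the median of each genotype as a bar; TN61H/H tumours lie between 0.84 and 2.56 and TN61K/K tumours between 2.79 and 3.74. Right, the log2 fold change of each tested list member in TN61L/L and TN61H/H against TN61R/R and TN61K/K, with called members coloured and list medians as bars; the 4 leukocyte lists have medians from -1.20 to -0.82.

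The lists of other cell types had no called gene in edgeR with all 24 tumours. These were 16 fibroblast and collagen genes (median -0.09), 10 endothelial genes (median -0.31), 14 keratinocyte genes (median -0.36), 8 adipocyte genes (median -0.76), 10 skeletal muscle genes (median 0.61), 6 B and plasma cell genes (median -0.60) and 2 tested erythroid genes. Some of these medians hide opposite signs in TN61L/L alone and TN61H/H alone. They were 0.90 and -2.13 for adipocyte, 1.37 and -0.28 for muscle, 0.14 and -0.78 for keratinocyte and 0.0039 and -0.14 for fibroblast genes. Endothelial (-0.04 and -0.46) and B and plasma cell medians (-0.11 and -0.88) were below 0 in both. At an unadjusted p under 0.05 there were 3 fibroblast, 1 endothelial and 2 B and plasma cell genes and 0 of the others. Leaving out 1 library gave 1 endothelial gene called lower without TN61H/H replicate 4, and 1 B and plasma cell gene called lower without TN61H/H replicate 4, TN61K/K replicate 4 or the sixth TN61R/R replicate. DESeq2 with all 24 tumours called 1 B and plasma cell gene lower and 0 fibroblast, endothelial, keratinocyte, adipocyte, muscle or erythroid genes. Keratinocyte content varied widely on both sides, with the list summing to 7.52 to 9972 CPM in TN61R/R and TN61K/K and 9.34 to 6227 CPM in TN61L/L and TN61H/H. Adipocyte transcripts summed to 31.6 to 2289 CPM and 30.1 to 2373 CPM, and muscle transcripts to 28.6 to 4621 CPM and 29.5 to 9372 CPM, so neighbouring tissue was present in some tumours of either side.

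A further 4 of the named lower genes are members of none of the lists and encode secreted or membrane-bound ligands, binding proteins or matrix proteins. Igfbp4, an insulin-like growth factor binding protein, stood at 515, 948 and 1902 CPM against 272, 452 and 1151 CPM, with 10 of 12 tumours below the other side (-1.26 ± 0.22, adjusted p = 0.00301). Dkk2, a modulator of Wnt signalling, stood at 2.73, 43.7 and 118 CPM against 2.48, 10.1 and 22.4 CPM, where one tumour of TN61R/R or TN61K/K was nearly as low as the lowest of the other side (-2.45 ± 0.43, adjusted p = 0.00391). Comp, a cartilage matrix protein, stood at 0.620, 2.81 and 8.48 CPM against 0.164, 0.563 and 1.60 CPM (-2.17 ± 0.37, adjusted p = 0.00301). Tnfsf18, the ligand of the T cell receptor GITR, had the largest fold of these, at 1.34, 16.5 and 65.9 CPM against a range of 0.570 to 5.31 CPM (-3.42 ± 0.61, adjusted p = 0.00408), and it lost its call in limma-voom.

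Promoter windows of 250 bases before to 50 after the start of transcription (RefSeq, GRCm38.p6) matched 104 of the 142 shared higher and 121 of the 174 shared lower genes, and 12655 of the 17214 tested genes. Of 7 short motifs searched on both strands, GAGGAAGT, the ETS core bound by PU.1, which directs myeloid and B cell genes, was in 21 of 121 shared lower windows (17.4%), 3 of 104 shared higher windows (2.88%) and 3.07% of all windows. Of the 21 windows, the first match lay before the start in 16. The core of the interferon response element, GAAANNGAA, was in 14.0%, 6.73% and 7.33% of these windows in the same order, and the AP-1 site TGANTCA in 10.7%, 4.81% and 5.99%. The other 4 were CACGTG (9.92%, 8.65% and 9.32%), ACAAAG (19.8%, 19.2% and 14.7%), TGACGTCA (1.65%, 1.92% and 2.92%) and CCGGAAGT, an ETS site that differs from the PU.1 core in its first bases (0.826%, 1.92% and 6.85%). A match is a description of these letters and not a bound site, and motifs were counted without regard to which shared genes are near copies of each other.

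The following stretches of 5 shared lower promoters are shown 5′ to 3′ on the strand of the gene, with the match to GAGGAAGT or its reverse complement in capitals. They are Fgd3 (chr13:49309216-49309275, minus strand), Mpo (chr11:87793534-87793593, plus), Traf3ip3, a lymphocyte gene (chr1:193201619-193201678, minus), Cd72, a B cell co-receptor (chr4:43454642-43454701, minus), and Pirb, an inhibitory immunoglobulin-like receptor (chr7:3720469-3720528, minus).
Fgd3: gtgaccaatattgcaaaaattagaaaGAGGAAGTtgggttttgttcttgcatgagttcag
Mpo: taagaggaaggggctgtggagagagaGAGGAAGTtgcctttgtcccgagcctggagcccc
Traf3ip3: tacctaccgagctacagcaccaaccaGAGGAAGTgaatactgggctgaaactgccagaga
Cd72: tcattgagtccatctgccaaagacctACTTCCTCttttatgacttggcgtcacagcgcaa
Pirb: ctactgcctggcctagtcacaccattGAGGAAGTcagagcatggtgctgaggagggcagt
Traf3ip3, Cd72 and Pirb, which were named here for their motif, had log2 fold changes of -1.02 ± 0.22 (adjusted p = 0.00995), -1.45 ± 0.29 (adjusted p = 0.00805) and -1.09 ± 0.29 (adjusted p = 0.0310).

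The limits of the shared group are set by its rule. The smallest of the 4 pair differences was 0.50 in size for Rdh10 and Ptpn22, just inside, and 0.498 for Pld4 and Jazf1, just outside. Around the adjusted p, Mcemp1 (0.04996) was called and Chd4 (0.0505) was not.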

How the data were processed

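RNA was sequenced from 24 melanomas, 6 per genotype. Per the labels, ribosomal RNA was depleted and stranded libraries were made, although the molecule is given as polyA RNA. The authors aligned reads with STAR and deposited a single table with the unnormalized count of reads for every gene. The submitters' processing notes name mm10, Picard 2.17.11 and featureCounts. The study's methods state a version of featureCounts, but no source used here gives its strand setting, so reads of a gene and of its antisense or overlapping partner cannot be told apart. The table held 24421 genes, 2830 without a read, 27 with names turned into dates and 54 on several chromosomes. No pair of libraries within a genotype agreed within sampling noise (chi-square over its degrees of freedom 70.0 or more).

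Genes were filtered by filterByExpr, scaled by TMM and tested by quasi-likelihood F-tests in edgeR 4.0.16 (robust, R 4.3.3) in a model with 1 mean per genotype, with the contrast of the mean of 61L/L and 61H/H against that of 61R/R and 61K/K. Benjamini-Hochberg adjustment ran over all 17214 genes, and the threshold was 0.05. CPM uses TMM-scaled library sizes, log2 CPM a prior count of 2, and the SE is the absolute log2 fold change over the square root of F. Alternatives were RLE and upper-quartile scaling, no filter and a stricter filter (1 CPM in 6 libraries), DESeq2 1.42.0, limma-voom (limma 3.58.1), a 2-group model, name style, Xist and marker means as covariates, the 18 libraries of one name style, no chromosome 6, separate fits, and leaving out each library. Summing the TN61H/H libraries of 1 title number and comparing within a title code were added after the values were seen. Column totals cover counting only, and the labels number no replicates.

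Members, the pairing of genotypes and the 21 lists (340 genes) were chosen with earlier results of these data known. The text names 7 genes always (Nras, Braf, Dusp6, Spry2, Mitf, Mki67, Ptprc). It further names the 10 shared genes per direction with the smallest adjusted p, at 1 CPM or more on their higher side, leaving out predicted and damaged names and taking at most 5 from 1 chromosome. It also names up to 4 called members per list and up to 8 shared genes per direction without overlap. Other genes were named after their values were seen, which holds for Luc7l2, for list members that did not pass, and for genes named for a motif, for a threshold or for a covariate fit. Sequences come from RefSeq (GRCm38.p6) and GENCODE, matched by symbol. One gene that the rule names is not reported here.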

Additional observations from a re-analysis of the deposited data

Results flagged for a closer look

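Within a genotype of 6 tumours, single libraries stood far from the other 5 for 15 of 54 named genes. Over 216 groups examined there were 16 such values, where chance gives about 1 in 20 groups. A set of 3 came from one library, TN61L/L replicate 6: Il1b at 25.9 CPM, where the next was 4.67, Sox2 at 41.0 CPM, where the next was 19.1, and Comp at 0.217 CPM, where the next was 0.809. In TN61L/L replicate 1 Igfbp4 stood at 1151 CPM (next 629) and the antiviral gene Mx1 at 2.85 CPM (next 4.90). In TN61H/H, Csf3r stood at 13.5 CPM in replicate 4 (next 5.95), the library whose absence raised the count of calls most, while Nkg7 stood at 0.109 CPM in replicate 5 (next 0.798), and Ngfr at 354 CPM (next 562) and Cd28 at 1.80 CPM (next 1.14) in replicate 6.

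In TN61R/R, replicate 1 had Braf at 170.3 CPM (next 111) and Cd28 at 1.28 CPM (next 2.30), replicate 2 had Ttyh1 at 104 CPM (next 69.4), replicate 5 had Itgb5 at 168 CPM (next 135), and replicate 6 had Gfra2 at 80.1 CPM (next 113) and Oas2 at 11.4 CPM (next 34.8). In TN61K/K, Dusp6 stood at 418 CPM in replicate 6, where the next tumour was at 241 CPM.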

How the results depend on the processing

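Of 913 calls (459 higher, 454 lower) and 316 shared genes, DESeq2 gave 1469 calls (805 lower) with 265 shared lower, and the 2-group model 257 lower calls. The 18 libraries of one name style gave 230 calls (178 higher, 52 lower) and 81 shared genes (46 higher, 35 lower). Leukocyte and keratinocyte means as covariates gave 16 calls (15 higher, 1 lower) and 12 shared genes (11 higher, 1 lower). The leukocyte mean alone, added after the data were seen, gave 4 calls (4 higher, 0 lower) and 4 shared genes (4 higher, 0 lower). Without chromosome 6 there were 526 calls (188 higher) and 88 shared higher genes. TN61L/L alone gave 0 calls (0 higher, 0 lower) and TN61H/H alone 1586 (867 higher, 719 lower); both were added after the data were seen. RLE and upper-quartile scaling, the filters, limma-voom, Xist and name style as a covariate and the sum of the TN61H/H libraries of 1 title number (1051 calls) kept the counts of called and shared genes within 1.5 times, but not those of the macrophage, interferon and RAS and RAF lists given above; name style, the 2-group model and the 18 libraries made 57.3%, 59.6% and 77.4% of calls higher ones against 50.3%. Fitting each 12 libraries separately called only 30 TN61H/H against TN61R/R genes in place of 348, of which 100% had the same direction in TN61L/L against TN61K/K. It called 447 TN61H/H against TN61K/K genes in place of 1612, and 78.7% of the 446 also tested in TN61L/L against TN61R/R had the same direction there, in place of 74.9%. For the fit of all 24 this share was 72.1% without chromosome 6 and 82.2% when chosen at p under 0.001. The cause was not tested in any of these.

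Leaving out single libraries gave 466 to 1537 calls, 246 to 681 higher and 220 to 856 lower, and 188 to 444 shared genes, 89 to 173 higher and 82 to 271 lower. The count moved by over 1.5 times without TN61R/R replicate 3 (517) or 5 (513), TN61K/K replicate 3 (520), TN61L/L replicate 3 (541) and TN61H/H replicates 1 (466), 2 (566), 5 (520) and 4 (1537), and lower calls also without TN61K/K replicate 2 (296). In all 24 omissions 423 genes kept their call, 229 of them higher and 186 shared. With both marker means as covariates Ccr2 came to 0.0647, Fcgr1 to 0.0671, H2-Eb1 to 0.15, Itgam to 0.0145, Ptprc to 0.0147, Mitf to -0.0901 and Mki67 to -0.46; with the leukocyte mean alone H2-Eb1 came to 0.0283 and Mki67 to -0.39. Within title codes, the median of the shared higher genes in TN61K/K against TN61R/R went from 0.00103 to -0.0741. No paired analysis was possible because replicate numbers follow accession order and pair nothing. Depth limits the genes under 1 CPM, such as Mpo.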

Other observations

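The following shared genes were picked after their values were seen, belong to none of the lists and stand for no group. Among the higher ones, Sema4f, a semaphorin on chromosome 6, stood at 16.4, 47.6 and 140 CPM (lowest, median, highest) in TN61R/R and TN61K/K against 67.3, 153 and 260 CPM in TN61L/L and TN61H/H (log2 fold change 1.52 ± 0.27, SE, edgeR adjusted p = 0.00411). Rcan2, an inhibitor of calcineurin, stood at 4.31, 12.2 and 39.5 CPM against 4.47, 68.6 and 163 CPM (2.22 ± 0.40, adjusted p = 0.00447). Vldlr, a receptor of reelin, stood at 22.9, 64.2 and 136 CPM against 66.8, 200 and 249 CPM (1.38 ± 0.27, adjusted p = 0.00682). The SOX factors of the neural crest and glia, Sox5 on chromosome 6 (0.97 ± 0.18, adjusted p = 0.00495) and Sox8 (2.09 ± 0.42, adjusted p = 0.00805), were higher as well, while Sox10 did not pass. For all of these the ranges of the sides overlapped.

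Among the lower ones, Cemip, a hyaluronan-degrading protein, stood at 7.92, 15.2 and 36.1 CPM against 0.285, 3.23 and 9.86 CPM (-2.28 ± 0.42, adjusted p = 0.00447). Il33, an alarmin released by damaged tissue, stood at 45.9, 108 and 255 CPM against 14.1, 32.8 and 84.3 CPM (-1.52 ± 0.33, adjusted p = 0.0107). Bdnf, a neurotrophin, stood at 1.99, 6.38 and 13.4 CPM against 0.410, 1.27 and 7.60 CPM (-1.74 ± 0.36, adjusted p = 0.00897), and Mmp3, a matrix protease, at 30.8, 157 and 557 CPM against 9.26, 48.9 and 139 CPM (-2.02 ± 0.43, adjusted p = 0.0100).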
